A study of Mus musculus with 19 samples.

Results

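The genes described here are those of 7 small heat shock proteins that muscle expresses (Hspb1, Hspb2, Hspb3, Hspb6, Hspb7, Hspb8 and Cryab) and of their co-chaperone Bag3, in the mouse infrarenal aorta after elastase infusion. They were chosen by name, 8 of the 30142 genes with a probe set that carries a single gene symbol, and all 8 were measured, each by 1 probe set. The rule keeps the brightest probe set of a gene, which decided nothing for these 8. The differences between PPE and sham aortae were known when the genes were chosen, so the calls below describe these genes and are not independent evidence that they fell. All 19 mice were C57BL/6J, an inbred laboratory strain, and were operated at 10 weeks of age. In the PPE groups (4 females, 7 males) the clamped aorta was filled for 5 min at 120 mmHg with saline that held type I porcine pancreatic elastase at 2.5 U/mL, which digests elastin and leads to an abdominal aortic aneurysm. The sham groups (3 females, 5 males) had the same operation with saline alone, so clamping, aortotomy and repair were common to all groups. The infrarenal segment was taken at 7 days, with 1 mouse per array, and the number of arrays limits the precision of every value below. Values are log2 intensities as deposited, PPE was set against sham within each sex, and a gene was called at an adjusted p below 0.05 (limma, Benjamini-Hochberg over all 30142 genes).

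Small heat shock proteins are ATP-independent chaperones built around an alpha-crystallin domain. They hold unfolding proteins in a soluble state until ATP-driven chaperones such as HSP70 refold them or pass them on for degradation. In muscle several of them sit on actin, desmin or titin filaments, and BAG3 joins HSPB8 to HSP70 in a complex that hands damaged filamin to autophagy.

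Elastase was followed by lower values of nearly the whole group. In males 7 of the 8 genes were called lower after PPE and 0 higher, where 9.98% of all genes were called lower, 9.67% higher and 19.7% in either direction. In females 3 of the 8 were called lower (Hspb1, Hspb8 and Cryab) and 0 higher, where 1.45% of all genes were called lower, 2.77% higher and 4.22% in either direction. The estimate was below 0 for all 8 genes in both sexes, with a median of −0.76 in males and −0.63 in females, against medians over all genes of 0.01 and −0.02. Hspb7 had the largest estimate in both sexes and Hspb3 the smallest. These arrays hold whole tissue, so fewer cells of a type and less RNA per cell cannot be told apart.

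**Figure D1:**
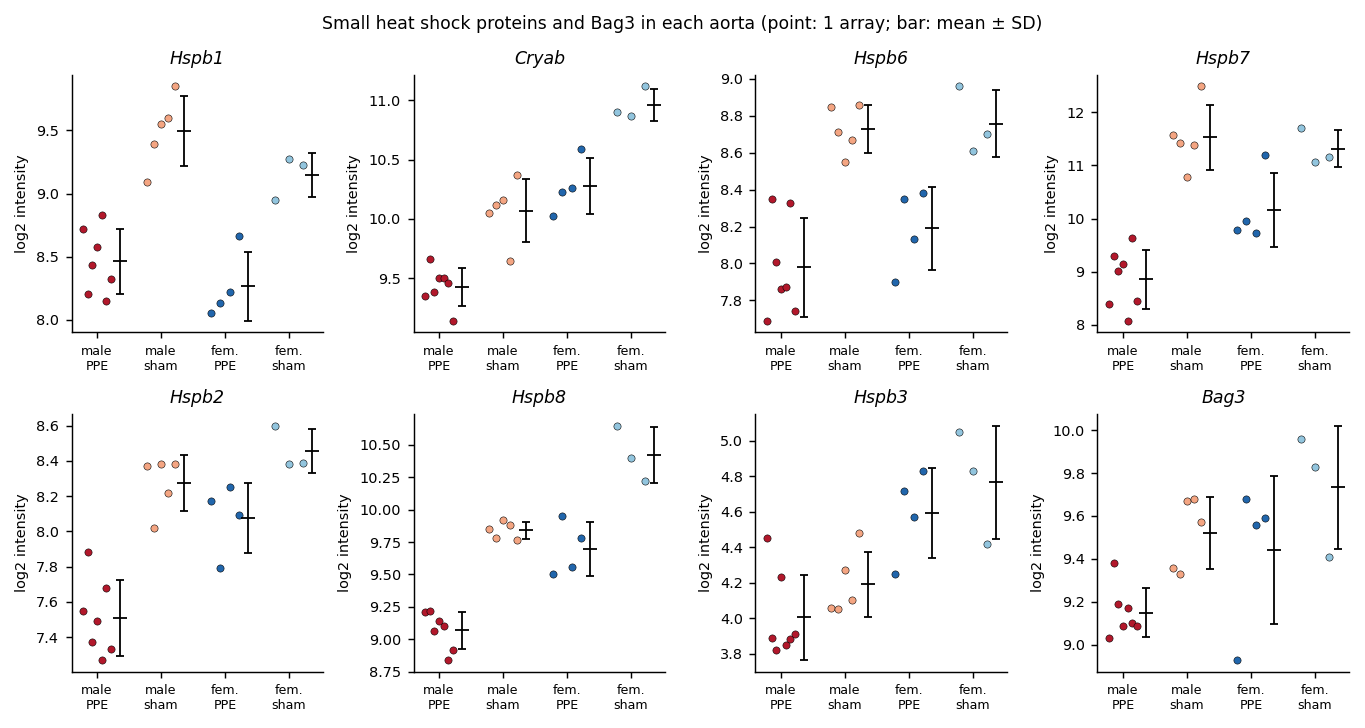
Log2 intensity (vertical axis) of each gene in each aorta, in PPE beside sham groups of males and of females. Points are arrays and bars the mean ± SD. For Hspb1, Hspb2, Hspb6, Hspb7 and Hspb8 all 7 male PPE arrays lie below all 5 male sham arrays.

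Arrays of 3 mice carried transcripts of skeletal muscle, a tissue that is itself rich in these chaperones. The mean of 14 skeletal muscle markers was 6.85 in male PPE 6, against 5.19 to 5.54 in the other male PPE arrays and 5.35 to 5.46 in male sham arrays. It was 8.75 in female PPE 2 and 5.74 to 5.82 in the other female PPE arrays, and it was 9.92 in female sham 1 and 5.89 and 5.94 in the other female sham arrays. Female sham 1 was the highest of its group for 6 of the 8 genes (Hspb2, Hspb3, Hspb6, Hspb7, Hspb8 and Bag3), female PPE 2 for Hspb8 and Bag3, and male PPE 6 for Hspb7. They were the lowest of their groups for other genes, female sham 1 for Hspb1, female PPE 2 for Hspb2, and male PPE 6 for Hspb1 and Hspb8. Without these 3 arrays, an alternative chosen after the data were seen, 6 of the 8 genes were called in males (all but Hspb3 and Bag3) and 1 in females (Hspb8). That fit held 1 array fewer in each female group and in the male PPE group. Whether calls were lost through the skeletal muscle transcripts or through fewer arrays was not tested. Male sham 4 was rich in fat transcripts: the mean of 8 white adipocyte markers was 8.80 to 9.92 in male PPE arrays, 12.23 in male sham 4 and 8.38 to 9.51 in the remaining sham arrays of males. In females this mean was 9.28 to 11.53 in PPE arrays and 10.48 to 12.09 in sham arrays. The brown fat list averaged 9.90 in male sham 4, against 5.45 to 5.84 in the others of its group. Smooth muscle, the defining tissue of the aortic wall, was present throughout, with a mean over 16 contractile genes of 10.54 to 11.43 in male PPE, 12.03 to 12.82 in male sham, 11.33 to 11.88 in female PPE and 12.46 to 12.75 in female sham arrays. The 12 male arrays had medians over all probe sets of 5.61 to 5.85 and the 7 female arrays of 6.17 to 6.31, so levels are not compared between the sexes.

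**Figure D2:**
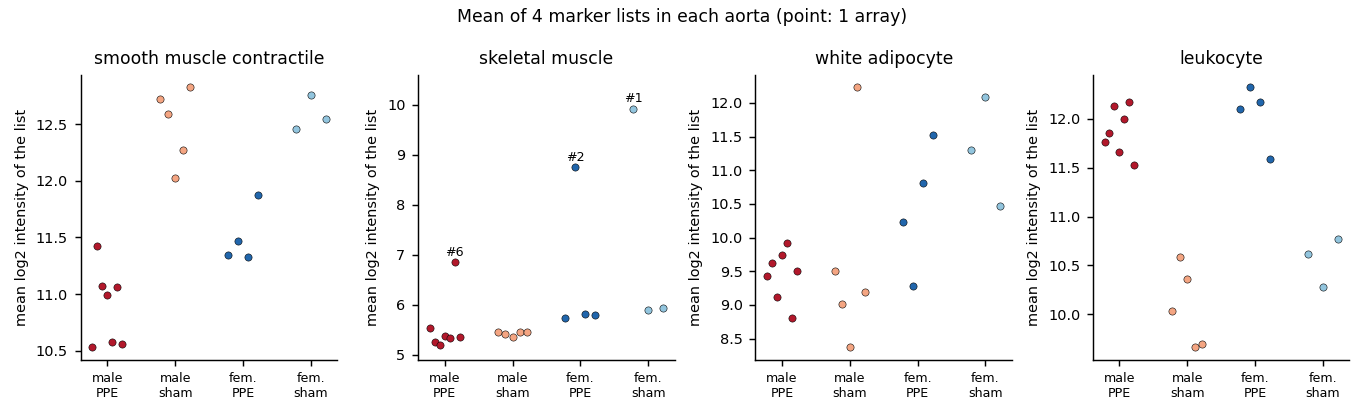
Mean log2 intensity (vertical axis) of 4 marker lists in each aorta, in PPE beside sham groups of males and of females; points are arrays. The smooth muscle list is lower and the leukocyte list higher in every PPE array than in every sham array of the same sex, and male PPE 6, female PPE 2 and female sham 1 stand above their groups in the skeletal muscle list.

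Hspb7 encodes the small heat shock protein of heart and muscle that binds filamin C (4: 141420779 to 141425310, mm10). In male PPE aortae it ranged from 8.08 to 9.63 with a median of 9.01, and in male sham aortae it was 11.58, 11.42, 10.78, 11.38 and 12.49. The groups did not overlap, the highest PPE array lying 1 log2 unit or more below the lowest sham array. The fall was −2.67 ± 0.32 on the log2 scale (SE, n = 7 and 5), or 6.38-fold, with limma adjusted p = 8.9e-06, and 8 of the 30142 genes had a larger estimated fall. In female PPE aortae Hspb7 was 9.78, 9.96, 9.72 and 11.20, and in female sham aortae 11.71, 11.07 and 11.16. Female PPE 4, at 11.20, lay within the sham range, and the other PPE arrays lay below it. That array also had the highest mean of the contractile genes in its group (11.88, others 11.33 to 11.47). Its mean of the leukocyte list was the lowest (11.59, others 12.10 to 12.32). Female PPE 4 was also the highest of its group in the white adipocyte list (11.53, others 9.28 to 10.82). The same held for the brown fat list (7.39, others 6.14 to 6.64) and the fibroblast list (15.547, others 15.175 to 15.263). The female estimate of −1.15 ± 0.41 (2.22-fold lower, n = 4 and 3) was not called in the limma fit (adjusted p = 0.148). Without female PPE 4 it was −1.49 with adjusted p = 0.0337, and without the skeletal muscle arrays −0.88 with adjusted p = 0.587.

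Hspb1 encodes HSP25, the mouse form of HSP27, a regulator of actin filaments that stress kinases phosphorylate (5: 135887919 to 135889563). It ranged from 8.15 to 8.83 in male PPE arrays with a median of 8.43, and was 9.09, 9.39, 9.55, 9.60 and 9.85 in male sham arrays. All PPE arrays lay below all sham arrays, and the difference of −1.03 ± 0.14 corresponded to a 2.05-fold fall (limma adjusted p = 4.36e-05, n = 7 and 5). In females it was 8.05, 8.13, 8.22 and 8.66 in PPE arrays and 8.95, 9.27 and 9.23 in sham arrays. The female groups were also separate, with a difference of −0.89 ± 0.19 (1.85-fold lower, limma adjusted p = 0.0114, n = 4 and 3). The female call was lost without female sham 2 (adjusted p = 0.0701), without female sham 3 (0.0515) and without the skeletal muscle arrays (−0.94, adjusted p = 0.0628).

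Hspb8 encodes HSP22, a small heat shock protein that BAG3 binds (5: 116408491 to 116422864). It had the tightest male sham group of the 8 genes, at 9.85, 9.78, 9.92, 9.88 and 9.77, and ranged from 8.84 to 9.22 with a median of 9.10 in male PPE arrays. Every PPE array was thus below every sham array, by a mean of 0.77 ± 0.09 (1.71-fold, limma adjusted p = 9.1e-06, n = 7 and 5). In females it was 9.50, 9.95, 9.56 and 9.78 after PPE and 10.65, 10.40 and 10.22 after sham, again without overlap. The female difference of −0.73 ± 0.12 (1.65-fold lower, limma adjusted p = 0.00308, n = 4 and 3) was the only one of the 8 called in all 30 alternative fits. Of the genes called in both sexes, Hspb8 and Cryab had the closest estimates in males and females.

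Bag3 encodes the co-chaperone that links HSPB8 to HSP70 (7: 128523583 to 128546981). It ranged from 9.03 to 9.38 with a median of 9.10 in male PPE arrays and was 9.36, 9.33, 9.67, 9.68 and 9.57 in male sham arrays. The highest PPE array, male PPE 2, lay above the lowest of the sham arrays, and the difference was −0.37 ± 0.12 (1.29-fold lower, limma adjusted p = 0.04, n = 7 and 5). This call stood in 10 of the 19 fits that left out 1 array and was lost without male sham 3, 4 or 5 or without male PPE 1, 3, 4, 5, 6 or 7 (adjusted p up to 0.0977). It was also lost with median centring (−0.32, adjusted p = 0.121), with array weights, with the replicate block and without the skeletal muscle arrays. In females Bag3 was 8.93, 9.68, 9.56 and 9.59 in PPE arrays and 9.96, 9.83 and 9.41 in sham arrays, overlapping groups whose estimate of −0.29 ± 0.16 was not called (limma adjusted p = 0.445). Its partner Hspb8 therefore passed the test in both sexes and Bag3 in males only, in a call that most single male arrays decided. The difference between the responses of these partners was not tested.

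Sequence upstream of the annotated starts is shown for 4 of the genes that fell, namely the pair with the largest male falls (Hspb7 and Hspb1) and the partner pair (Hspb8 and Bag3). RefSeq windows (GRCm38.p6) were held for 6 of the 8 genes, and each line gives the 250 bases before the start, 5′ to 3′ on the gene's strand. Capitals mark matches on either strand to 6 motifs. The motif GAANNTTC and its inverted form TTCNNGAA are made of the units that heat shock factors bind. The motif CATTCC is the core of the muscle M-CAT element, the TATA box was searched as TATAAA and the NF-Y box as CCAAT, and the CArG box is that of serum response factor.
Hspb7 (chr4:141420529-141420778, plus strand): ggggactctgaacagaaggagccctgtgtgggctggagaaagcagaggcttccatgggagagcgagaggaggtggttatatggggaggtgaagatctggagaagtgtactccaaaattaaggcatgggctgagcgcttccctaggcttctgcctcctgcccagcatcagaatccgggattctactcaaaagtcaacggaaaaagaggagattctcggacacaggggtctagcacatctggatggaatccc
Hspb1 (chr5:135887669-135887918, plus strand): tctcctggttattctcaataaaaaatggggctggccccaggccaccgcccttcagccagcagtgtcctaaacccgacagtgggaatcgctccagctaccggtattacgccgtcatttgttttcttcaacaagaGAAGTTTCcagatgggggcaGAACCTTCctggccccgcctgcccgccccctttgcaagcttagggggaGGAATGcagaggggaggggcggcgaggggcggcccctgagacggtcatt
Hspb8 (chr5:116422865-116423114, minus strand): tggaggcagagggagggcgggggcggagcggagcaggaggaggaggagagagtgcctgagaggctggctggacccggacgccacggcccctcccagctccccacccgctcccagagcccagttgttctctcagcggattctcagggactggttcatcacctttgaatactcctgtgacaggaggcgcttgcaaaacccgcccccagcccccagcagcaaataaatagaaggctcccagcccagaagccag
Bag3 (chr7:128523333-128523582, plus strand): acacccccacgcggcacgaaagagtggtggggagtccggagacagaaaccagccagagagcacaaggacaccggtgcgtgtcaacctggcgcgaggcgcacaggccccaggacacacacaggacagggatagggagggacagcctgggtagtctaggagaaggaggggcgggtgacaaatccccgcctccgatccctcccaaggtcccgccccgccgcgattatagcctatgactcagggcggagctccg
Only Hspb1 among these 4 windows held a match. It had GAANNTTC at −117 and −97 and the reverse complement of CATTCC at −49, counted back from the start, and 0.228% of 32851 promoter windows held GAANNTTC at least 2 times. Of the windows not printed, that of Hspb3 had GAANNTTC at −224 and the TATA box at −11, the downstream start of Hspb6 had GAANNTTC at −120 and the TATA box at −29, and the upstream start of Hspb6 had the NF-Y box 4 times. Across all windows GAANNTTC was present in 6.69% and its inverted form in 7.17%, the M-CAT core in 12.6%, the TATA box in 12.4%, the NF-Y box in 33.8% and the CArG box in 1.47%. No match says only that these letters are not in this window.

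Cryab encodes alpha B-crystallin, a chaperone of desmin and titin (9: 50745951 to 50756636). In male PPE arrays it ranged from 9.14 to 9.66 with a median of 9.46, and in male sham arrays it was 10.05, 10.12, 10.16, 9.64 and 10.37. Male sham 4, the male array rich in fat transcripts, was the only sham array within the PPE range. The difference was −0.64 ± 0.12 (1.56-fold lower, limma adjusted p = 0.000617, n = 7 and 5), and it was −0.75 without male sham 4. In female PPE arrays Cryab was 10.02, 10.23, 10.26 and 10.59, and in female sham arrays 10.90, 10.87 and 11.12. These groups did not overlap, and the difference of −0.69 ± 0.15 (1.61-fold lower) was called (limma adjusted p = 0.0153, n = 4 and 3). The female call was lost without female sham 2 (adjusted p = 0.0535), female sham 3 (0.0801) or female PPE 1 (0.0568), and without the skeletal muscle arrays (−0.70, adjusted p = 0.121).

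Hspb6 encodes HSP20, which cyclic nucleotide kinases phosphorylate as smooth muscle relaxes (7: 30552535 to 30555443). It ranged from 7.69 to 8.35 with a median of 7.87 in male PPE arrays and was 8.85, 8.71, 8.55, 8.67 and 8.86 in male sham arrays. The male groups were separate, and Hspb6 fell by 0.75 ± 0.12 on the log2 scale (1.68-fold, limma adjusted p = 0.000218, n = 7 and 5). In females it was 7.90, 8.35, 8.13 and 8.38 after PPE and 8.96, 8.61 and 8.70 after sham. The female groups did not overlap either, but the estimate of −0.57 ± 0.16 missed the threshold (limma adjusted p = 0.0543, n = 4 and 3), and it was called in 8 of 30 alternative fits.

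Hspb2 encodes a partner of myotonic dystrophy protein kinase (9: 50751072 to 50752354), and its annotated span lies wholly inside that of Cryab. Whether the probes of both genes share sequence was not tested. Hspb2 ranged from 7.27 to 7.88 with a median of 7.49 in male PPE arrays and was 8.37, 8.02, 8.38, 8.22 and 8.38 in male sham arrays. These groups were separate, with a difference of −0.76 ± 0.11 (1.70-fold lower, limma adjusted p = 4.85e-05, n = 7 and 5). In females it was 8.17, 7.79, 8.25 and 8.09 after PPE and 8.60, 8.38 and 8.39 after sham. All female PPE arrays lay below all sham arrays, but the estimate of −0.38 ± 0.14 was not called (limma adjusted p = 0.162, n = 4 and 3). It was −0.21 without the skeletal muscle arrays (adjusted p = 0.742), and with quantile normalization it was −0.49 and was called (adjusted p = 0.0447).

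Hspb3, which in muscle forms complexes with HSPB2 (13: 113662896 to 113663676), was the gene with no call in either sex. It stood between the 3.9th and the 23.8th percentile of the probe sets of each array, at 3.82 to 4.45 in male PPE and 4.05 to 4.48 in male sham aortae. In females it was 4.25 to 4.83 after PPE and 4.42 to 5.05 after sham, so the groups overlapped in both sexes. The differences of −0.19 ± 0.13 in males (limma adjusted p = 0.406) and −0.17 ± 0.18 in females (0.772) lie at a signal so low that a change may not be measurable. The other 7 genes stood between the 70.8th and the 96th percentile.

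**Figure D3:**
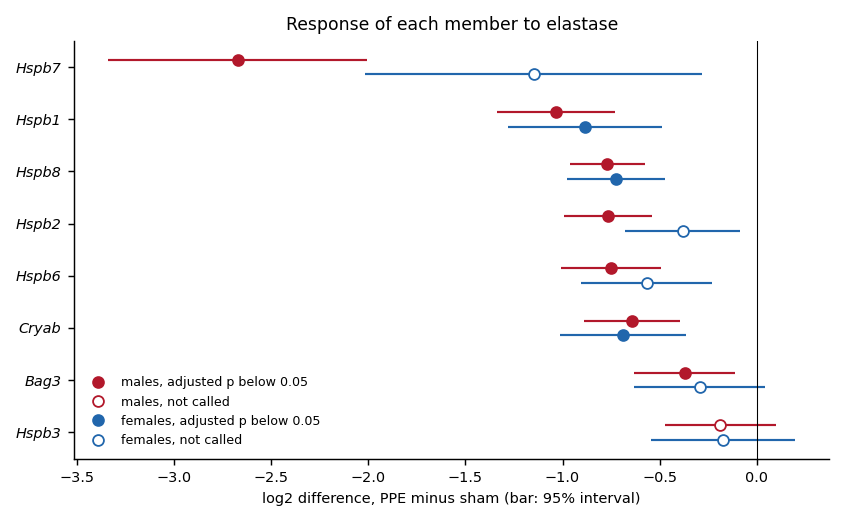
Log2 difference between PPE and sham aortae (horizontal axis) of each gene with its 95% interval, in males (red) and females (blue). Filled points had an adjusted p below 0.05. All 16 estimates lie below 0, and the male estimate of Hspb7 is the farthest from it.

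Complete separation of the arrays was as frequent in females as in males for these genes. Every PPE array lay below every sham array for 5 of the 8 genes in males, where 4.68% of all genes did so, and for 5 of the 8 in females, where 8.86% did. The genes were not the same: Hspb7 was separate in males and overlapped in females, and Cryab the reverse.

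The response was set against that of the other sex by the difference of the differences. None of the 8 genes passed this test (limma, 0 of 8, where 0.541% of all genes were called), and Hspb7 and Hspb2 had an unadjusted p below 0.05, as did 9.95% of all genes. For Hspb7 the male response exceeded the female one by −1.52 ± 0.52 (95% interval −2.62 to −0.43, adjusted p = 0.253). For Hspb2 it was −0.38 ± 0.18 (−0.75 to −0.01, adjusted p = 0.486). For the other 6 genes the interval held 0, the narrowest being that of Hspb8 (−0.36 to 0.27) and the widest that of Hspb1 (−0.65 to 0.35). Male and female arrays did not overlap in their medians over all probe sets. Sex therefore cannot be told apart from any other difference between these sets of arrays, here or in the correlations below.

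The falls were set beside that of the contractile apparatus, of which 15 of 16 genes were called lower in males and 9 in females, with medians of −1.83 and −1.02. The smooth muscle myosin gene Myh11 was at −2.90 in males and −1.65 in females (adjusted p = 0.0553 in females), and the actin gene Acta2 at −0.74 and −0.84. Smtn (smoothelin) fell by 1.78 in males and by 0.82 in females, and Lmod1 (leiomodin) fell by 2.35 and by 1.43. Of the 16 contractile genes 1 had a larger male estimate than Hspb7, 11 had a larger one than Hspb1, 12 than Hspb2, Hspb6 and Hspb8, 15 than Cryab, and all 16 than Bag3. Relative to the mean of the contractile list, Hspb7 was lower after PPE than after sham in males by 1.08 log2 units, without overlap of the arrays, and in females the difference was −0.07 with overlap. The other 7 genes were higher relative to the contractile list after PPE than after sham, by 0.56 to 1.41 in males and by 0.20 to 0.91 in females. Both upper values are those of Hspb3, at the low end of the signal, and the next were those of Bag3 (1.225 and 0.788). The arrays overlapped for Hspb1 and Hspb8 in both sexes and for Hspb2 in males, and were otherwise separate. These ratios describe unequal change and were not tested.

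Between aortae of the same group, Hspb7 and Hspb6 varied with the contractile list. Over deviations of the 19 arrays from their group means, Hspb7 had Pearson's r = 0.80 (permutation p = 0.00035, adjusted p = 0.0028 over the 8 genes) and Spearman's rho = 0.84 (permutation p = 0.00031, adjusted p = 0.00248). Without the 2 arrays whose list deviation lay farthest from the median deviation r was 0.79, and it was 0.85 in males and 0.70 in females. Hspb6 had r = 0.72 (permutation p = 0.00186, adjusted p = 0.00744) and rho = 0.71 (permutation p = 0.0017, adjusted p = 0.0068), with r = 0.62 without the same 2 arrays, 0.85 in males and 0.32 in females. Cryab had r = 0.56 (permutation p = 0.0241) and rho = 0.47 (permutation p = 0.0578), neither of which passed adjustment (0.0643 and 0.154). The other 5 genes ranged from r = −0.13 for Hspb1 to 0.30 for Hspb2, with permutation p of 0.268 or more. Hspb1 differed in sign between the sexes, with r = −0.43 over the 12 male and 0.91 over the 7 female arrays. So did Hspb2 (0.48 and −0.30), Hspb3 (−0.19 and 0.42) and Hspb8 (−0.09 and 0.22). For these genes the pooled value describes neither sex, and the difference between the sexes was not tested. The values share their array, so array-wide scaling enters both axes.

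**Figure D4:**
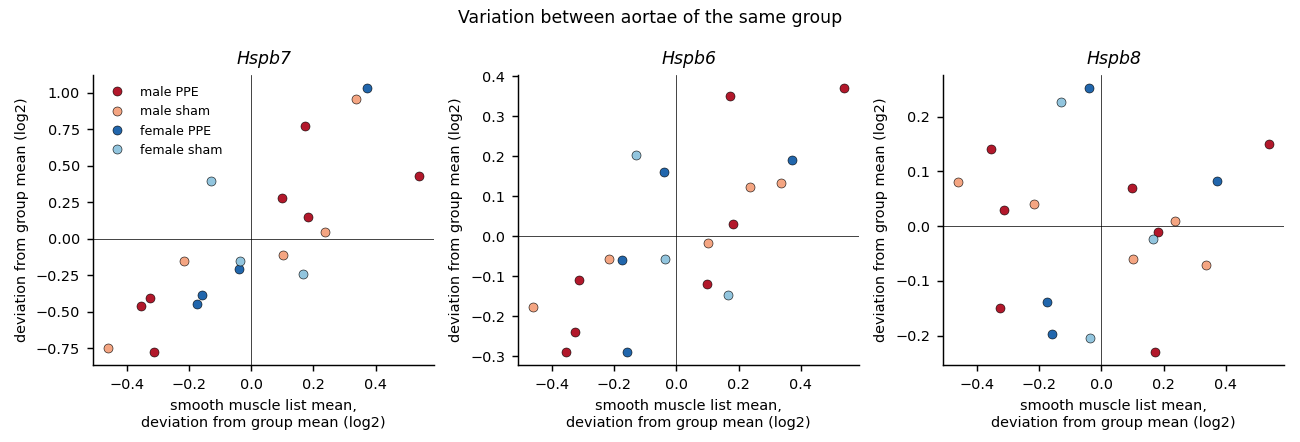
Deviation of Hspb7, Hspb6 and Hspb8 from their group means (vertical axes, log2) against that of the mean of 16 smooth muscle contractile genes (horizontal axes, log2); points are the 19 arrays, coloured by group. Hspb7 and Hspb6 increase along the axis (r = 0.80 and 0.72). Hspb8 shows no such relation over the 19 arrays (r = 0.02, with −0.09 in males and 0.22 in females).

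Among themselves the 8 genes were loosely tied within groups. Of the 28 pairs 25 had a correlation above 0 over the deviations of the 19 arrays, with a median of 0.24, and 7 pairs were below 0 within males and 7 within females. Some pairs differed in sign between the sexes, such as Hspb3 with Bag3 (−0.11 in males and 0.93 in females), Hspb3 with Hspb6 (−0.39 and 0.80) and Hspb6 with Hspb8 (−0.25 and 0.84). Hspb3 lay at the low end of the signal. All of these genes were highest of their group in female sham 1, which carried skeletal muscle transcripts, and lowest of their group in female PPE 1. The part of these arrays in the female correlations was not tested. Over all 19 arrays the closest was Hspb6 with Hspb7 (0.75), which had 0.77 in males and 0.71 in females, followed by Hspb8 with Bag3 (0.65, with 0.36 and 0.80), and the lowest was Hspb1 with Hspb6 (−0.31). Over the 12 male arrays the genes most like Hspb6 after removal of group means were Itga8 (integrin alpha 8, r = 0.92), Tpm2 (beta tropomyosin, 0.92) and Myh11 (0.90), of which Tpm2 also had 0.82 over the 7 female arrays. Those most like Hspb7 were Scube3 (0.95), Olfr1487 (0.94) and Col18a1 (0.94), with −0.12, 0.16 and 0.49 in females. For Bag3 they were Lmnb2 (0.93), Baiap2 (0.90) and Atat1 (0.89), and for Hspb8 Jag2 (0.85), Iqcd and Olfr281 (both 0.85). Jmjd6 for Hspb1 (0.93), Taar3 for Hspb2 (0.92), Gas2l1 for Cryab (0.93) and Grin2d for Hspb3 (0.94) led the remaining genes. With 30142 genes searched over 12 arrays such values are a description, and most were far lower in females. Jag2 (0.89) and Atat1 (0.86) stayed high there, and Jmjd6 (−0.86) and Iqcd (−0.88) were strongly negative.

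The rest of the chaperone system is set beside the 19.7% of all genes called in males and the 4.22% called in females. Of 14 measured HSP70, HSP90 and chaperonin genes 1 rose and 2 fell in males and 0 were called in females, with medians of 0.10 and −0.20. Hspa8, the constitutive HSP70 of the cell, was at 0.23 in males (adjusted p = 0.229) and 0.02 in females (0.984). In males Hspa14 rose (0.23), and Hspa12b of endothelial cells (−0.44) and Hspa2 (−0.35) fell. Of 13 J-domain and HSP90 co-chaperone genes 1 rose in males (Ahsa1, 0.27), 3 fell in males (Dnajb5 −0.60, Dnajb4 −0.47 and Unc45a −0.28) and 1 fell in females (Fkbp4, −0.42, an HSP90 partner). In that list Dnajb1 and Dnajb2 were not called in either sex, at −0.07 and −0.15 in males and 0.04 and −0.14 in females. The heat shock factor genes Hsf2 (−0.07 in males and −0.01 in females) and Hsf4 (0.02 and 0.03) were not called, nor was the factor-binding gene Hsbp1 (−0.05 and −0.37). The other 5 BAG genes were not called in either sex, with Bag1 at 0.11 and −0.09 and Bag2 at −0.13 and −0.22 in males and females. The remaining genes with a small heat shock name, Cryaa (0.07 and −0.07), Hspb9 (−0.15 and −0.10), Hspb11 and Odf1, were not called either. In male PPE and sham arrays Hspb9 averaged 4.07 and 4.22, Odf1 4.83 and 4.87, and Cryaa 5.92 and 5.85. The medians of male arrays were 5.61 to 5.85, so a change in these low genes may not be measurable.

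Filament and autophagy partners of these chaperones fell in part, beside 9.98% of all genes called lower in males and 1.45% in females. Synpo2, the BAG3-binding scaffold at the Z-disc and actin filaments, fell by 2.56 ± 0.30 on the log2 scale in males (limma adjusted p = 9.12e-06) and by 1.73 ± 0.40 in females (0.0173), and Flna (filamin A) fell by 1.35 in males. Of the 9 measured genes of the autophagy pathway that uses BAG3, 4 fell (the other two being Flnc, −0.43, and Map1lc3b, −0.19) and 1 rose (Stx7, 0.53) in males (median −0.11), and Synpo2 alone fell in females (median −0.12). Hspa8 belongs to this list and to the HSP70 list. Of 10 filament and Z-disc genes 6 fell in males (median −0.88) and 2 in females (median −0.62). In females these were Actn1 and Pdlim3 (−2.35). Female sham 1 and female PPE 2, which carried skeletal muscle transcripts, had the highest filament and Z-disc means of their groups. These were 11.709 (others 10.536 and 10.765) and 11.055 (others 9.973 to 10.283). The part of these arrays in the female median was not tested. The male falls included Des, which encodes desmin (−0.86 in males, −0.72 in females with adjusted p = 0.19), Synm (−1.21, and −0.37 with adjusted p = 0.338) and Actn1 (−1.11 and −0.73). Vimentin (Vim) was at −0.03 in males and −0.07 in females and was not called.

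**Figure D5:**
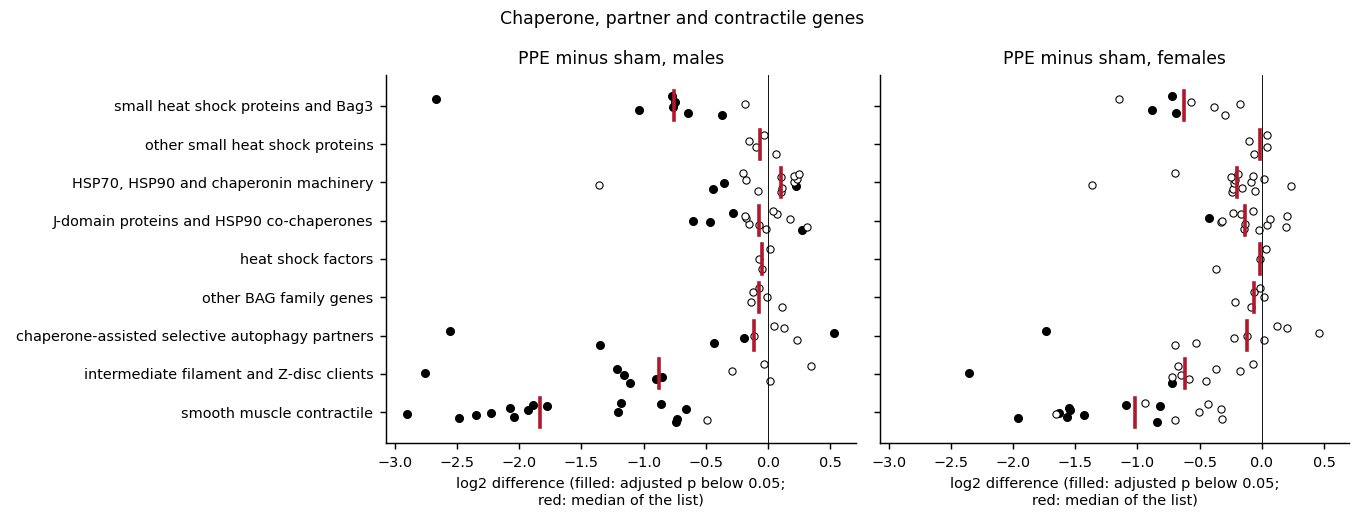
Log2 difference between PPE and sham aortae (horizontal axes) for the genes of 9 lists (rows), in males (left) and females (right). Points are genes, filled where the adjusted p was below 0.05, and red lines are list medians; the small heat shock genes with Bag3 have medians of −0.76 and −0.63, the contractile genes −1.83 and −1.02, and the HSP70, HSP90 and chaperonin genes 0.10 and −0.20.

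Markers of other cell types that could carry these transcripts moved as follows, and their part in the falls was not tested beyond the fits without single arrays given above. Of 14 skeletal muscle markers 0 were called in either sex (medians 0.12 in males and −0.81 in females), with Acta1 at 0.12 and −0.82, Ckm at 0.11 and −0.46, Myoz1 at 0.12 and −0.30 and Tnni2 at 0.15 and −0.39. Of 7 cardiac markers 1 fell in each sex, the calcium release channel gene Ryr2 (−1.47 and −0.74), while the defining Myh6 (−0.03 and −0.09) and Tnni3 (0.15 and −0.05) were not called. White adipocyte markers were not called (0 of 8, medians −0.22 and −0.72; Adipoq 0.43 and −0.68, Plin1 −0.23 and −0.84, Plin4 −1.12 and −0.76, Lep −0.50 and −0.59). In the brown fat list all 7 estimates were below 0 in both sexes (medians −0.33 and −1.04), and the list mean was 6.14 to 7.39 in female PPE arrays and 7.49 to 8.54 in female sham arrays, without overlap. In each sex 1 of the 7 fell, the deiodinase gene Dio2 (−1.24 and −1.99), while Ucp1 (−0.14 and −1.82), Cidea (−0.90 and −2.58) and Elovl3 (−0.61 and −0.18) were not called. Schwann cell and nerve markers were not called (0 of 5, medians 0.06 and 0.20; Sox10 −0.10 and 0.20, Mbp 0.17 and 0.22, S100b −0.26 and −0.36). Leukocyte markers rose in 9 of 10 members in males and in 5 in females (Ptprc 2.62 and 1.80, Csf3r 2.49 and 2.09, Cd68 1.66 and, not called, 0.86). Endothelial markers fell in 3 of 7 in males (Pecam1 −0.48, Tek −0.89, Cdh5 not called at −0.07) and in 0 in females (−0.29, −0.53 and 0.16). Fibroblast markers fell in 4 of 6 in males (Lum −0.43, Cd34 −0.82, Dpt −1.02, Dcn not called at −0.06) and in 2 in females (Cd34 −0.73).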

How the data were processed

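RNA of the infrarenal aorta of 19 mice was hybridised to Affymetrix Clariom D (MTA 1.0) arrays, 100 ng per mouse, per the labels. The deposited values are log2 intensities per probe set, computed by the authors in Affymetrix's Transcriptome Analysis Console (mm10) per the submitters' processing notes. The sources used here do not name its version or its summarisation. Of 65956 probe sets 30604 carried 1 gene symbol, 2146 several, and 33206 were not listed. Symbols were updated through gene IDs for 827 of them against RefSeq of GRCm38.p6, and the brightest probe set was kept per gene (30142 genes). At most 2.5% of values were identical between arrays. Replicates are separate mice.

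Group means were fitted to all 19 arrays (limma 3.58.1 in R 4.3.3) without further normalization or filter. Contrasts were PPE minus sham in each sex and their difference, male minus female. The procedure was run on simulated data with independent normal noise per gene and no arrays of mixed tissue. That run does not bear on the effect of such arrays on the calls. The genes, lists, tests and alternatives were chosen with earlier results of these data known. Named were the 8 genes, the first 2 measured and the 2 lowest male p of each list, and the 3 genes most like each of the 8 (predicted and small RNA genes skipped); list members beyond these were named after their values were seen. Correlations with the contractile list used 100000 permutations within groups, two-sided. Fits were repeated with median centring or quantile normalization, without dim genes, with other uses of probe sets, an intensity trend, array weights, single-sex fits, a replicate block, and arrays left out singly or in sets.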

Additional observations from a re-analysis of the deposited data

Results flagged for a closer look

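In 51 groups of 4 or more arrays (24 for the genes, 27 for marker lists) 8 held an array far from the others of its group; chance alone marks about 5% of groups. Female PPE 4 had Hspb7 at 11.20 against 9.72 to 9.96 in the other female PPE arrays. Female PPE 1 had Bag3 at 8.93 against 9.56 to 9.68.

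Among marker lists, the skeletal muscle mean was 6.85 in male PPE 6 (others 5.19 to 5.54) and 8.75 in female PPE 2 (others 5.74 to 5.82). The brown fat mean was 7.03 in male PPE 6 (others 5.41 to 6.01) and 9.90 in male sham 4 (others 5.45 to 5.84). The fibroblast mean was 15.21 in male sham 4 (others 15.68 to 15.87), and the endothelial mean was 11.14 in female PPE 3 (others 11.46 to 11.51).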

How the results depend on the processing

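In males Hspb1, Hspb2, Hspb6, Hspb7, Hspb8 and Cryab were called lower in all 30 alternative fits, and the count of the 8 genes was 6 or 7 in each (6 to 7 with single arrays left out). In females the count was 3, and it was 5 after quantile normalization, 1 without female sham 1, female PPE 2 and male PPE 6, and 1 to 5 with single arrays left out (1 without female sham 2 or 3, 5 without female PPE 4); Hspb8 was called in each of the 30 fits, Bag3 in none of them and Hspb3 in none of the 29 that kept it. For the difference between the sexes the count was 0 in each of 29 fits. Over all genes, 5923 were called in males (4958 to 6365 with single arrays left out, 10186 over every probe set, 3535 with the replicate block) and 1273 in females (368 to 1613 with single arrays left out, 3951 with array weights, 1970 with female arrays only, 639 with the replicate block, 2454 without male sham 4, male sham 5 and male PPE 1, 217 without the skeletal muscle arrays). For the difference between the sexes 163 genes were called (0 to 426 with single arrays left out, 274 with median centring, 554 over every probe set, 931 with array weights, 0 with the replicate block, 79 without male sham 4, male sham 5 and male PPE 1, 0 without the skeletal muscle arrays); fewer arrays enter some of these fits, and otherwise the cause was not tested. The sign of an uncalled difference between the sexes turned for Hspb8 (0.038 with quantile normalization, 0.059 with the replicate block), Bag3 (0.026 with quantile normalization, 0.01 without male sham 4, male sham 5 and male PPE 1), Hspb3 (0.03 with median centring, 0.11 with the replicate block), Cryab (−0.053 with array weights) and Hspb1 (0.073 with the replicate block). With single arrays left out these differences ranged from −0.158 to 0.057 for Hspb8, −0.249 to 0.083 for Bag3, −0.15 to 0.16 for Hspb3 and −0.06 to 0.15 for Cryab. The replicate numbers showed no sign of pairing the samples: same-numbered PPE and sham arrays had correlations of deviations from −0.32 to 0.24, and 2 of 8 PPE arrays correlated best with the sham array of their number. With so few arrays this check cannot exclude a pairing. With the replicate block Bag3 was at −0.35 in males (adjusted p = 0.238). Probe sets at the low end of the signal, such as that of Hspb3, limit what can be read as a change.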

Other observations

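The heat-inducible HSP70 gene Hspa1a had 1 high array in each sham group. It was 5.63 to 6.43 in male PPE arrays (6.05 ± 0.32, SD, n = 7) and 6.25 to 9.65 in male sham arrays (7.41 ± 1.40, n = 5). In females it was 5.86 to 7.34 after PPE (6.60 ± 0.61, n = 4) and 6.99 to 9.77 after sham (7.97 ± 1.56, n = 3). The highest value of each group belonged to male PPE 3, male sham 4 (the male array rich in fat transcripts), female PPE 4 and female sham 2, and the sham medians were 6.93 in males and 7.14 in females. Female PPE 4 and female sham 2 also had the highest white adipocyte means of their groups. These were 11.53 (others 9.28 to 10.82) and 12.09 (others 10.48 and 11.30). In male PPE 3 that mean was 9.12, within the range of its group. The part of fat in these values was not tested. The estimates of −1.36 in males (limma adjusted p = 0.0862) and −1.37 in females (0.387) were not called. Hsph1, which encodes an HSP110 chaperone induced by heat, had its highest value in the same array of each group except male PPE, at 10.19 to 10.62 in male PPE, 10.08 to 11.01 in male sham, 10.21 to 11.32 in female PPE and 11.09 to 12.11 in female sham arrays. Of the 8 genes described above, Bag3 followed these inducible chaperones most closely between male aortae of the same group, with r = 0.68 for Hspa1a and 0.69 for Hsph1 over 12 arrays, and it had 0.46 and 0.69 over the 7 female arrays. It did not stand apart in females, where Hspb1 had 0.57 for Hspa1a and 0.69 for Hsph1 and Hspb3 had 0.43 and 0.67. Hspb7 had 0.14 and −0.44 in males and 0.14 and 0.41 in females. These correlations are descriptions over arrays that share their scaling.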
